A study of Homo sapiens with 5 samples.

Results

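The switch that starts mitosis was followed through 10 genes, the activators and inhibitors of CDK1 at mitotic entry, chosen by name from 13822 genes with a deposited value. They were the CDC25 phosphatases CDC25A, CDC25B and CDC25C, the inhibitory kinases WEE1 and PKMYT1, the Polo and Aurora arm of PLK1, AURKA and BORA, the checkpoint kinase CHEK1, and the cyclin CCNB2. The study depleted circVAMP3, a circular RNA made from the VAMP3 gene, in RH4 cells, an established line of alveolar rhabdomyosarcoma, a muscle-lineage tumour. Polyadenylated RNA was sequenced from 3 samples labelled si-SCR, given a control siRNA, and from 2 labelled si-circVAMP3, given an siRNA against the back-splice junction of the circle. Both siRNAs were used at 30 nM, with fresh medium after 24 h and harvest 24 h later. The study's methods call the samples of a group biological replicates.

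CDK1 bound to a B-type cyclin drives cells into mitosis, and WEE1 and PKMYT1 (also called MYT1) hold it inactive by phosphorylating it near its ATP site. CDC25 phosphatases remove those phosphates, and active CDK1 in turn stimulates CDC25 and restrains WEE1, which makes entry switch-like. PLK1, activated by AURKA with the cofactor BORA, pushes the balance towards entry, while CHEK1 delays it by inhibiting CDC25 when DNA is damaged or unreplicated.

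The siRNA is shown because 3 of the 10 mRNAs hold a stretch that pairs with its seed, as described further on. In its listed strand the capitals mark the bases that follow the back-splice junction. In the complementary strand, which pairs with the circle, they mark the seed, bases 2 to 8 counted from its 5′ end. That strand was taken as the guide because it is complementary to the circle. The list of oligonucleotides does not name the strands, and the seed word and its shares rest on this choice.
Listed strand: caucaucgGUGGUGGACAUuu
Guide strand: aUGUCCACcaccgaugaug
Of the 19 bases before the 2-base overhang, 8 end exon 4 of VAMP3 and 11 begin exon 3, and the span from the start of exon 3 to the end of exon 4 is 211 bases. The 19 bases do not occur in the linear VAMP3 mRNA.

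The values were FPKM, fragments per kilobase of gene length scaled to the size of the library. Levels set side by side between genes therefore rest on the gene lengths used, which differed from canonical mRNA lengths by unequal factors. For WEE1 the lengths were 9251 bases used against 3588 in the canonical mRNA, and for CDC25A 4145 against 3844. Library sizes read from the step that 1 fragment makes in these values were about 26670000, 24990000 and 24950000 fragments for si-SCR replicates 1 to 3, and 18530000 and 28800000 for si-circVAMP3 replicates 1 and 2. The least deep library therefore belonged to the si-circVAMP3 group. Among the tested genes, the log2 differences between si-SCR replicates 1 and 2 had an SD of 0.135, while si-SCR replicate 3 differed from them with SDs of 0.207 and 0.183. The si-circVAMP3 libraries differed from each other with an SD of 0.144. In a principal component analysis the first component held 67.2% of the variance and separated the groups, and the second held 18.0% and set si-SCR replicate 3 apart from the other si-SCR libraries.

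VAMP3 itself, the host gene, was read first. Its FPKM was 36.4, 35.4 and 37.4 in the si-SCR libraries and 29.4 and 30.2 in the si-circVAMP3 libraries. Both si-circVAMP3 values were below all si-SCR values, and the log2 fold change was -0.29 ± 0.043 (SE, limma, adjusted p = 0.00496). The linear mRNA holds the last 12 of the 19 bases of the listed strand, the seed word included. Polyadenylated libraries read the linear mRNA, so this row does not measure the circle, and the knock-down of circVAMP3 was not analysed here. The call was lost without si-circVAMP3 replicate 1 (log2 fold change -0.27, limma, adjusted p = 0.0506, and over all alternatives the adjusted p ran from 0.00342 to 0.0506).

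All 10 genes of the switch passed the filter on low values (a mean FPKM of at least 0.5 over the 5 libraries). Under si-circVAMP3, CDC25B and PLK1 were lower, WEE1 was higher, and the other 7 did not pass the test at an adjusted p under 0.05 (limma on log2(FPKM + 0.5)). Across the 12245 genes tested, 14.6% were called higher and 15.8% lower, so 1 higher and 2 lower of 10 is a share near that of all genes. The 3 called genes also passed a log2 fold change of at least 0.58 in size, which 1.09% of all genes did upwards and 2.72% downwards. The members were chosen with earlier results of these data known, and the study had named CDC25B and WEE1 as changed. These shares are therefore no test of the set. Both si-circVAMP3 values lay above all si-SCR values for 2 of the 10 genes and below them for 3, against 29.5% and 28.9% of all genes. The number called across all genes fell from 3723 to 2189 without si-SCR replicate 2, 1307 without si-circVAMP3 replicate 1 and 1263 without si-circVAMP3 replicate 2, and CDC25B, PLK1 and WEE1 were called in each case. The median log2 fold change of the 10 was -0.016, and that of all tested genes was 0.007. In bulk RNA, fewer cells in a phase of the cycle and less RNA per cell cannot be told apart. By flow cytometry, which these libraries do not cover, the study reported a small increase in the share of RH4 cells in G2 after circVAMP3 knock-down.

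**Figure D1:**
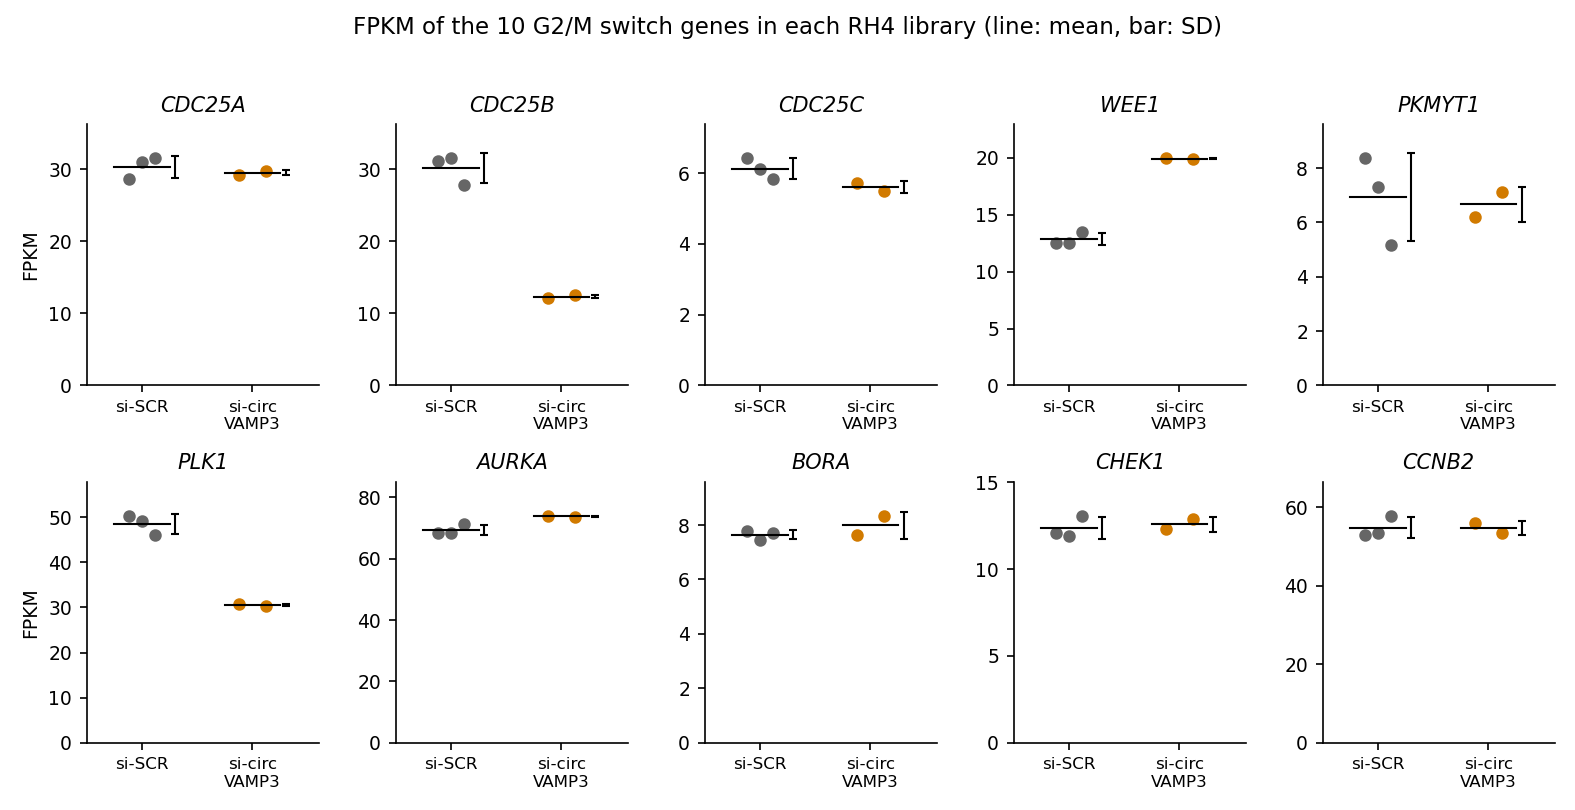
FPKM (vertical axes, from 0) of the 10 genes in each library, with si-SCR in grey (n = 3) and si-circVAMP3 in orange (n = 2); the horizontal line is the group mean and the bar beside it the SD. CDC25B and PLK1 lie lower and WEE1 higher in both si-circVAMP3 libraries, while PKMYT1 has the widest spread between si-SCR libraries relative to its mean.

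By mean FPKM over the 5 libraries the genes ran from AURKA at 71.1, CCNB2 at 54.7 and PLK1 at 41.4 down to BORA at 7.78, PKMYT1 at 6.83 and CDC25C at 5.91. This order rests on the gene lengths used and was not worked out per base of canonical mRNA. In si-SCR cells, the FPKM of CDC25A (30.4 ± 1.53 FPKM, SD, n = 3) and CDC25B (30.1 ± 2.06 FPKM, SD, n = 3) did not differ beyond their spread. Both stood far above CDC25C (6.12 ± 0.295 FPKM, SD, n = 3). The likeness rests on gene lengths of 4145 and 4314 bases for CDC25A and CDC25B, whose canonical mRNAs have 3844 and 3119. The spread between si-SCR libraries was 2.23% to 6.84% of the mean for 9 of the genes and 23.5% for PKMYT1.

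Of the phosphatases, CDC25B, which acts early at the centrosome to start CDK1 activation, was the one called. Its FPKM was 31.2, 31.5 and 27.8 in the si-SCR libraries and 12.2 and 12.5 in the si-circVAMP3 libraries. Both si-circVAMP3 values were far below the lowest si-SCR value, and the mean was 0.409 times that of si-SCR. The log2 fold change was -1.25 ± 0.064 (SE, 95% interval -1.41 to -1.10, limma, adjusted p = 0.00016). From the lowest fold change upwards CDC25B (ENSG00000101224, chr20:3786772-3806121, GRCh38, + strand) was gene 18 of the 12245 tested. These values stood on 3585, 3393 and 2987 fragments in the si-SCR libraries and on 973 and 1550 in the si-circVAMP3 libraries.

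CDC25A, which also acts at the start of S phase, had FPKM values of 28.6, 31.0 and 31.5 in the si-SCR libraries and 29.2 and 29.8 in the si-circVAMP3 libraries. The groups overlapped, with a log2 fold change of -0.04 (95% interval -0.17 to 0.09, limma, adjusted p = 0.611). CDC25C, the phosphatase most closely tied to mitosis, had FPKM values of 6.41, 6.13 and 5.82 in the si-SCR libraries and 5.72 and 5.48 in the si-circVAMP3 libraries. Its si-circVAMP3 values were both below the si-SCR values, by a margin smaller than the spacing within each group, and it was not called (log2 fold change -0.12, 95% interval -0.27 to 0.03, limma, adjusted p = 0.201).

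The 3 phosphatase mRNAs summed to 66.2, 68.6 and 65.1 FPKM in the si-SCR libraries and to 47.1 and 47.7 FPKM in the si-circVAMP3 libraries. CDC25B made up 47.1%, 45.9% and 42.7% of that sum in the si-SCR libraries and 25.8% and 26.1% in the si-circVAMP3 libraries. In FPKM, CDC25A was thus the highest of the 3 in both si-circVAMP3 libraries, whereas it and CDC25B had like FPKM in si-SCR cells. That likeness depends on the gene lengths used, as given above.

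On the opposing side, WEE1, the nuclear kinase that inhibits CDK1, was called higher. Its FPKM was 12.6, 12.5 and 13.5 in the si-SCR libraries and 19.96 and 19.94 in the si-circVAMP3 libraries. The groups were well apart, with a mean 1.55 times that of si-SCR. The log2 fold change was 0.61 ± 0.051 (SE, 95% interval 0.49 to 0.74, limma, adjusted p = 0.00075). Counted from the highest fold change, WEE1 (ENSG00000166483, chr11:9573670-9593457, GRCh38, + strand) was gene 126. The interval includes the fold threshold of 0.58, as does that of PLK1 on the lower side, so for both the fold rule rests on the estimate alone.

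PKMYT1, the membrane-bound partner of WEE1, had FPKM values of 8.35, 7.30 and 5.15 in the si-SCR libraries and 6.22 and 7.12 in the si-circVAMP3 libraries. The si-circVAMP3 values lay within the si-SCR range, with a log2 fold change of -0.03 (95% interval -0.46 to 0.40, limma, adjusted p = 0.912). The low si-SCR value came from replicate 3, the library that stood apart from the other controls, and without it the log2 fold change was -0.22, also not called. The interval of PKMYT1 was the widest of the 10, and changes of up to 0.46 downwards or 0.40 upwards lay within it.

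The quotient of CDC25B over WEE1 FPKM within each library was 2.48, 2.51 and 2.05 in the si-SCR libraries and 0.61 and 0.626 in the si-circVAMP3 libraries. In FPKM, CDC25B was therefore the higher of the pair in every si-SCR library, and WEE1 in both si-circVAMP3 libraries. The lengths used were 4314 bases for CDC25B and 9251 for WEE1, against canonical mRNAs of 3119 and 3588. The size of the quotient depends on these lengths, whereas its change between the groups does not.

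In the Polo and Aurora arm, PLK1, the kinase that activates CDC25C and marks WEE1 for destruction, was called lower. Its FPKM was 50.3, 49.3 and 46.1 in the si-SCR libraries and 30.7 and 30.4 in the si-circVAMP3 libraries. The groups did not overlap, and the si-circVAMP3 mean was 0.629 times that of si-SCR. The log2 fold change was -0.66 ± 0.049 (SE, 95% interval -0.78 to -0.54, limma, adjusted p = 0.000489), gene 229 from the lowest. PLK1 (ENSG00000166851) lies at chr16:23677656-23690367 (GRCh38, + strand), and its si-circVAMP3 values stood on 2708 and 4171 fragments.

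AURKA, which phosphorylates PLK1, had FPKM values of 68.5, 68.2 and 71.2 in the si-SCR libraries and 74.0 and 73.6 in the si-circVAMP3 libraries. Both si-circVAMP3 values were above all si-SCR values, yet the difference was small and not called (log2 fold change 0.09, 95% interval -0.002 to 0.18, limma, adjusted p = 0.125). PLK1 over AURKA FPKM was 0.735, 0.722 and 0.647 in the si-SCR libraries and 0.415 and 0.413 in the si-circVAMP3 libraries, so it was lower in both si-circVAMP3 libraries. BORA, the cofactor that lets AURKA act on PLK1, ran from 7.45 to 7.78 FPKM in the si-SCR libraries and was 7.65 and 8.34 in the si-circVAMP3 libraries. The groups overlapped (log2 fold change 0.06, limma, adjusted p = 0.478), and the log2 fold change ran from 0.001 without si-circVAMP3 replicate 2 to 0.119 without si-circVAMP3 replicate 1.

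CHEK1, the kinase that restrains CDC25, had FPKM values from 11.9 to 13.1 in the si-SCR libraries and of 12.3 and 12.9 in the si-circVAMP3 libraries. Its values overlapped, with a log2 fold change of 0.03 (95% interval -0.11 to 0.16, limma, adjusted p = 0.764). CCNB2, a mitotic cyclin whose mRNA peaks in G2 and M, had FPKM values of 53.004, 53.4 and 57.8 in the si-SCR libraries and 56.0 and 53.3 in the si-circVAMP3 libraries. These overlapped as well, with a log2 fold change of -0.001 (95% interval -0.13 to 0.12, limma, adjusted p = 0.985). The interval of this cyclin did not reach changes of the size seen in CDC25B and PLK1.

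**Figure D2:**
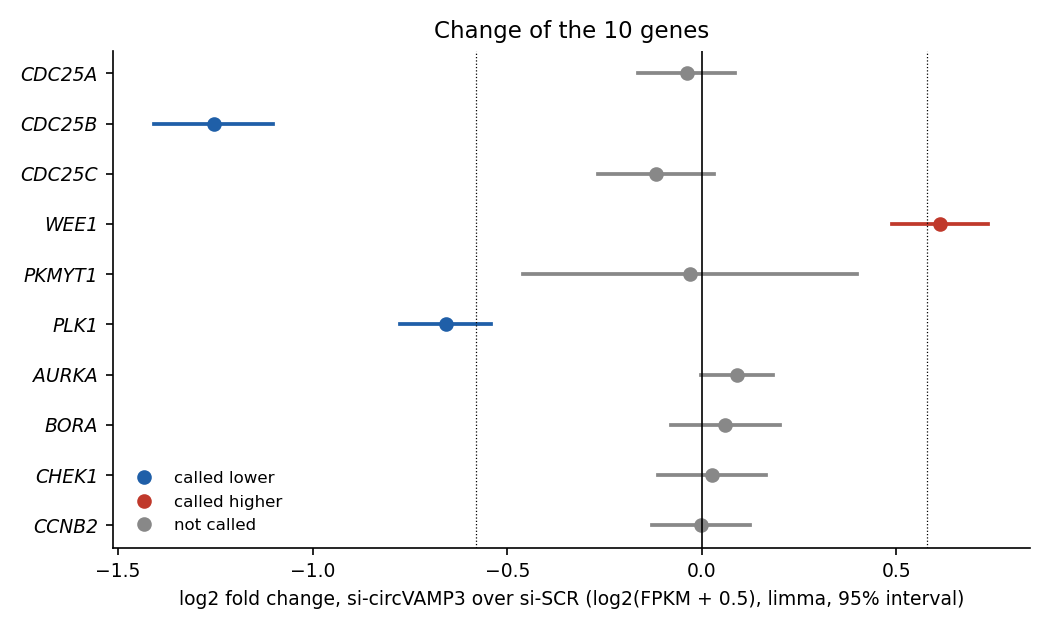
Log2 fold change of si-circVAMP3 over si-SCR on the log2(FPKM + 0.5) scale (horizontal axis) with its 95% interval from limma for the 10 genes; colours mark the call at an adjusted p under 0.05, and dotted lines the fold threshold of 0.58. CDC25B is at -1.25, PLK1 is at -0.66 and WEE1 at 0.61, and the intervals of the other 7 include 0.

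The mRNAs were then searched for the word that pairs with the guide's seed, GTGGACA, a search chosen after the values had been seen. It was made on the mRNA strand of the canonical coding transcript of each gene. The word occurred in 3 of the 10 mRNAs: CDC25B, with a copy in the coding sequence and another in the 3′ UTR, and PLK1 and CDC25C, each with a copy in the coding sequence. The other 7, WEE1 among them, held it in neither. The matched stretches are printed 5′ to 3′ on the mRNA strand at the length of the guide, with the word in capitals.
CDC25B coding: atgatggatttGTGGACAt
CDC25B 3′ UTR: tgcctatttgtGTGGACAa
PLK1 coding: cccgcactatgGTGGACAa
CDC25C coding: atggaaacttgGTGGACAg
In GRCh38 the CDC25B stretches lie at chr20:3801351-3801369 in exon 8 and chr20:3805918-3805936 in exon 16, both on the + strand. The PLK1 stretch lies at chr16:23689999-23690017 in exon 10 on the + strand, and the CDC25C stretch at chr5:138319352-138319370 in exon 7 on the - strand. In PLK1 and CDC25C the unbroken match to the guide ran over 9 bases from guide base 2, and in both CDC25B stretches over 7. A match is a description of letters and not a measured binding site.

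Both members called lower thus held the word, as did CDC25C, which was not called, whereas the member called higher did not. The word was common: of the 10947 tested genes with a canonical coding mRNA, 30.5% held it in the coding sequence or 3′ UTR, and so did 3 of the 10 members. Among the 294 of these genes called lower with a log2 fold change of at least 0.58 in size, the group that holds CDC25B and PLK1, 72.4% had the word. Among the 115 called higher by the same rule, the group that holds WEE1, 18.3% had it. Of the 20 lowest called genes, among which CDC25B was number 18, the word was in 18. The word that would pair with the seed of the listed strand, CGATGAT, was in 6.46% of the genes called lower with that fold and in 6.53% of all, and in none of the 10 members.

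By where the word stood, the median log2 fold change was -0.11 for genes with it in the 3′ UTR, as in CDC25B, -0.05 for genes with it in the coding sequence alone, as in PLK1 and CDC25C, and 0.04 for genes without it. The share called lower was 33.7%, 23.9% and 11.1% in the same order. CDC25B and PLK1 lay at the low end of their classes and CDC25C nearer the middle of its own. Genes with the word also had longer mRNAs, with medians of 5101, 4128 and 3006 bases in that order, against 3119 for CDC25B, 2160 for PLK1 and 2093 for CDC25C. When the genes were split into 3 equal groups by mRNA length, those of 207 to 2489 bases, which include PLK1 and CDC25C, were called lower with the fold in 9.27% of genes with the word and 1.17% without. For 2490 to 4533 bases, which includes CDC25B and WEE1, the shares were 6.91% and 0.997%, and for longer mRNAs 4.91% and 1.00%. Whether the word had a part in the change of CDC25B or PLK1 was not tested, and with a single siRNA against circVAMP3 in these libraries the loss of the circle and other effects of this siRNA cannot be told apart.

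**Figure D3:**
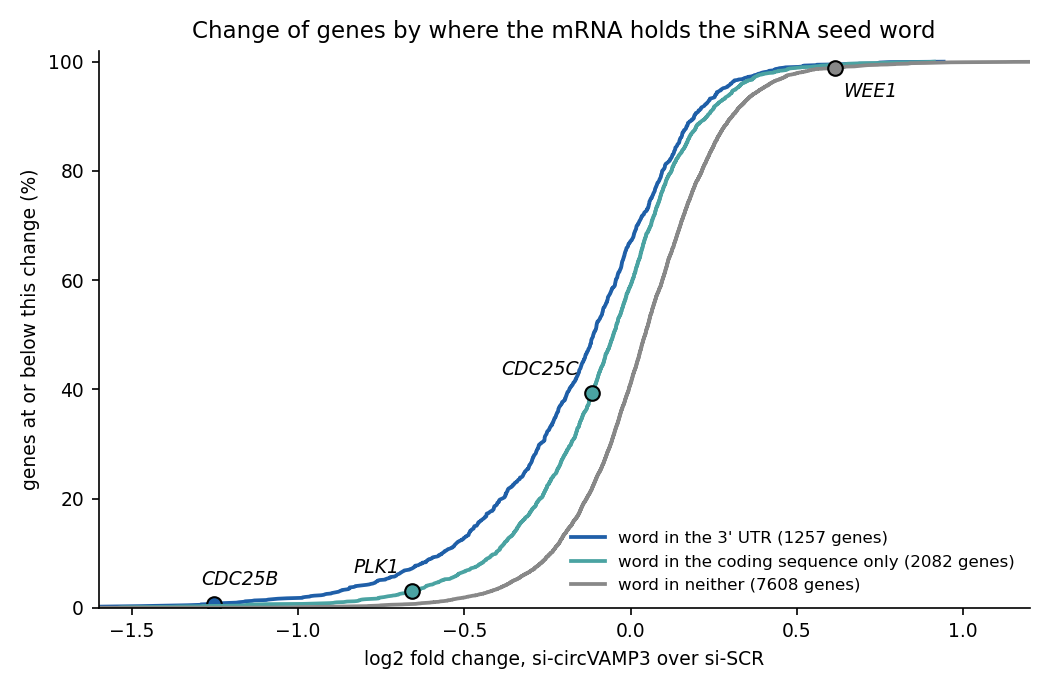
Percent of tested genes (vertical axis) at or below a given log2 fold change of si-circVAMP3 over si-SCR (horizontal axis, shown from -1.6 to 1.2), by whether the mRNA holds the seed word in the 3′ UTR (1257 genes), in the coding sequence only (2082) or in neither (7608); circles mark 4 members. The curves of genes with the word lie to the left of the curve without it, with medians of -0.11, -0.05 and 0.04.

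Around the switch, 109 tested genes of 11 lists gave 19 called higher (17.4%) and 26 called lower (23.9%), against 14.6% and 15.8% of all tested genes, the shares that each list count is to be read against. The 45 calls became 23 without si-circVAMP3 replicate 1 and 25 without si-circVAMP3 replicate 2. Of CDK1 and its cyclin and CKS partners, 2 of 9 were higher and 1 was lower (median log2 fold change 0.05), against 14.6% and 15.8% of all genes. The 3 calls became 1 without si-circVAMP3 replicate 1, 1 without si-circVAMP3 replicate 2 and 1 with a variance prior without a trend. CCNA2, the cyclin of S phase and G2, changed by -0.27 (limma, adjusted p = 0.00442), and CKS1B by 0.18 (limma, adjusted p = 0.0202). The call of CKS1B was lost without si-circVAMP3 replicate 1 (limma, adjusted p = 0.139) or 2 (limma, adjusted p = 0.0781), with the replicate block (limma, adjusted p = 0.0599) and with a variance prior without a trend (limma, adjusted p = 0.0521). CDK7, which activates CDK1, changed by 0.18 (limma, adjusted p = 0.0417), and its call was lost without si-SCR replicate 1 or 2 (limma, adjusted p = 0.0753 and 0.121) and without si-circVAMP3 replicate 1 or 2 (limma, adjusted p = 0.16 and 0.184), with quantile normalization (limma, adjusted p = 0.0542) and with a variance prior without a trend (limma, adjusted p = 0.0693). CDK1 itself had FPKM values of 46.8, 42.6 and 44.9 in the si-SCR libraries and 42.5 and 41.6 in the si-circVAMP3 libraries and was not called. The groups of CDK1 did not overlap, but by less than the spread of the si-SCR values.

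PP2A-B55 opposes CDK1, and the kinase Greatwall (MASTL) inhibits PP2A-B55 through ENSA and ARPP19. The list holds both sides and had 3 of 9 genes higher and 2 lower (median 0.05), against 14.6% and 15.8% of all genes. The 5 calls became 3 without si-SCR replicate 2, 2 without si-circVAMP3 replicate 1 and 3 without si-circVAMP3 replicate 2. The 2 B55 regulatory subunits in the list differed in opposite directions, PPP2R2D by -0.60 (limma, adjusted p = 0.00174) and the more abundant PPP2R2A by 0.30 (limma, adjusted p = 0.0062). The scaffold PPP2R1B changed by 0.42 (limma, adjusted p = 0.00153) and MASTL by 0.20 (limma, adjusted p = 0.0219). PPP2R2A lost its call without si-circVAMP3 replicate 1 (limma, adjusted p = 0.0567), and MASTL without si-SCR replicate 2 or si-circVAMP3 replicate 1 or 2 (limma, adjusted p = 0.0776, 0.152 and 0.0642). Of the 14-3-3 proteins, which hold phosphorylated CDC25 in the cytoplasm, 3 of 6 tested were lower and none higher (median -0.20), against 15.8% and 14.6% of all genes. They were YWHAQ at -0.56, YWHAZ at -0.38 and YWHAB at -0.36 on the log2 scale, and the summed FPKM of the list was 751.5, 760.5 and 766.2 in the si-SCR libraries and 676.2 and 670.8 in the si-circVAMP3 libraries.

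Upstream of CHEK1 and CDC25, the ATR and ATM checkpoint list had 1 of 11 genes higher, RAD9A at 0.45 on the log2 scale, and 1 lower, CHEK2 (median -0.008), no more than the 14.6% and 15.8% of all genes. Without si-circVAMP3 replicate 1 or 2, the list had 0 calls by limma. CHEK2, the other checkpoint kinase, changed by -0.19 (limma, adjusted p = 0.0488), close to the threshold, and lost its call whichever of the 5 libraries was left out (limma, adjusted p from 0.0669 to 0.272). The call was also lost with no filter, median centring, quantile normalization, a variance prior without a trend and the replicate block (limma, adjusted p from 0.0526 to 0.0812). RAD9A lost its call without si-circVAMP3 replicate 1 (limma, adjusted p = 0.118) or 2 (limma, adjusted p = 0.0556). In the p53 arm, 2 of 7 tested genes were higher and 2 lower (median -0.013), against 14.6% and 15.8% of all genes, and the 4 calls became 2 without si-circVAMP3 replicate 1. CDKN1A, the inhibitor p21, had FPKM values of 11.6, 11.1 and 9.77 in the si-SCR libraries and 17.7 and 16.7 in the si-circVAMP3 libraries (log2 fold change 0.65, limma, adjusted p = 0.00223). MDM2, the ligase of p53, had FPKM values of 8.18, 8.91 and 9.32 in the si-SCR libraries and 5.09 and 5.44 in the si-circVAMP3 libraries (log2 fold change -0.69, limma, adjusted p = 0.00136). These transcripts, both classical p53 targets, therefore differed in opposite directions.

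Of the ubiquitin ligases that act on the switch, WEE1 and CDC25A among their substrates, the list had 1 of 10 genes higher and 1 lower (median 0.03), below the 14.6% and 15.8% of all genes, and the 2 calls became 4 without si-SCR replicate 3. BTRC, the F-box protein that recognises WEE1 after phosphorylation by PLK1, changed by -0.51 (limma, adjusted p = 0.00338), and the adaptor SKP1 by 0.36 (limma, adjusted p = 0.00231). Among Polo and Aurora partners, 1 of 9 was higher and 3 were lower (median -0.04), against 14.6% and 15.8% of all genes. The 4 calls became 2 without si-SCR replicate 2, without si-circVAMP3 replicate 1 or without si-circVAMP3 replicate 2. The lower ones were PLK4 at -0.36, AURKB at -0.32 and TPX2, the activator of AURKA, at -0.15 on the log2 scale. The higher one was AJUBA at 0.21, whose call was lost without the same 3 libraries (limma, adjusted p = 0.0692, 0.0638 and 0.152) and with the replicate block (limma, adjusted p = 0.0556). The call of TPX2 was lost without si-SCR replicate 2 (limma, adjusted p = 0.0723), si-circVAMP3 replicate 1 (limma, adjusted p = 0.124) or si-circVAMP3 replicate 2 (limma, adjusted p = 0.117), and with median centring, a variance prior without a trend or the replicate block (limma, adjusted p = 0.0504, 0.0625 and 0.0646).

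Of the factors that regulate G2/M genes such as PLK1 and CCNB2, activators and repressors together, 4 of 17 were higher and 4 lower (median 0.04), against 14.6% and 15.8% of all genes. The 8 calls became 4 without si-circVAMP3 replicate 1 and 4 without si-circVAMP3 replicate 2. MYBL2 (B-MYB) had the largest log2 fold change in size of all the tested list genes, with FPKM values of 199.3, 225.3 and 200.6 in the si-SCR libraries and 106.7 and 102.8 in the si-circVAMP3 libraries (log2 fold change -0.99, limma, adjusted p = 0.000294). FOXM1 had FPKM values of 64.9, 72.6 and 73.6 in the si-SCR libraries and 54.9 and 56.1 in the si-circVAMP3 libraries (log2 fold change -0.34, limma, adjusted p = 0.00895). E2F3 at 0.41 (limma, adjusted p = 0.00379) and LIN52 at 0.38 (limma, adjusted p = 0.00481) were called higher, in all 14 alternatives as well. MYBL2 and FOXM1 were lower in each si-circVAMP3 library than in any si-SCR library, and the call of FOXM1 was lost without si-circVAMP3 replicate 1 (limma, adjusted p = 0.0727) or 2 (limma, adjusted p = 0.0607).

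Transcripts that peak in G2 and M, as PLK1 and CCNB2 do, were lower in 8 of 14 and higher in none (median -0.26), against 15.8% and 14.6% of all genes, and 6 to 8 were called with any library left out. Those that peak in G1/S and S were higher in 5 of 16 and lower in 1 (median 0.10), against the same shares of all genes. The 6 calls of that list became 3 without si-SCR replicate 2, 1 without si-circVAMP3 replicate 1 and 1 without si-circVAMP3 replicate 2. KIF20A, a mitotic kinesin, had FPKM values of 20.1, 20.6 and 20.2 in the si-SCR libraries and 12.9 and 11.5 in the si-circVAMP3 libraries (log2 fold change -0.72, limma, adjusted p = 0.000635). CCNE2, a G1/S cyclin, changed by 0.43 (limma, adjusted p = 0.00468). PLK1 was lower like most of the 14 listed G2 and M transcripts, whereas CCNB2 and AURKA were not called. In other lists, CCNB1, CDC20, BIRC5 and CKS2 were also not called, with log2 fold changes of -0.06, -0.02, -0.04 and 0.05. CCNA2, AURKB and TPX2, likewise from other lists, were lower. Interferon-stimulated genes, which double-stranded RNA can induce, were low. Of 8, 3 were in the table and 1 was tested, ISG15, at 2.03, 2.26 and 0.555 FPKM in the si-SCR libraries and 2.55 and 2.56 FPKM in the si-circVAMP3 libraries (log2 fold change 0.65, limma, adjusted p = 0.25). Without si-SCR replicate 3 its log2 fold change was 0.21 (limma, adjusted p = 0.0858). The FPKM of the 3 summed to 2.44, 2.99 and 1.18 in the si-SCR libraries and 3.57 and 3.39 in the si-circVAMP3 libraries, so the sum was higher with si-circVAMP3 while the single tested gene was not called.

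**Figure D4:**
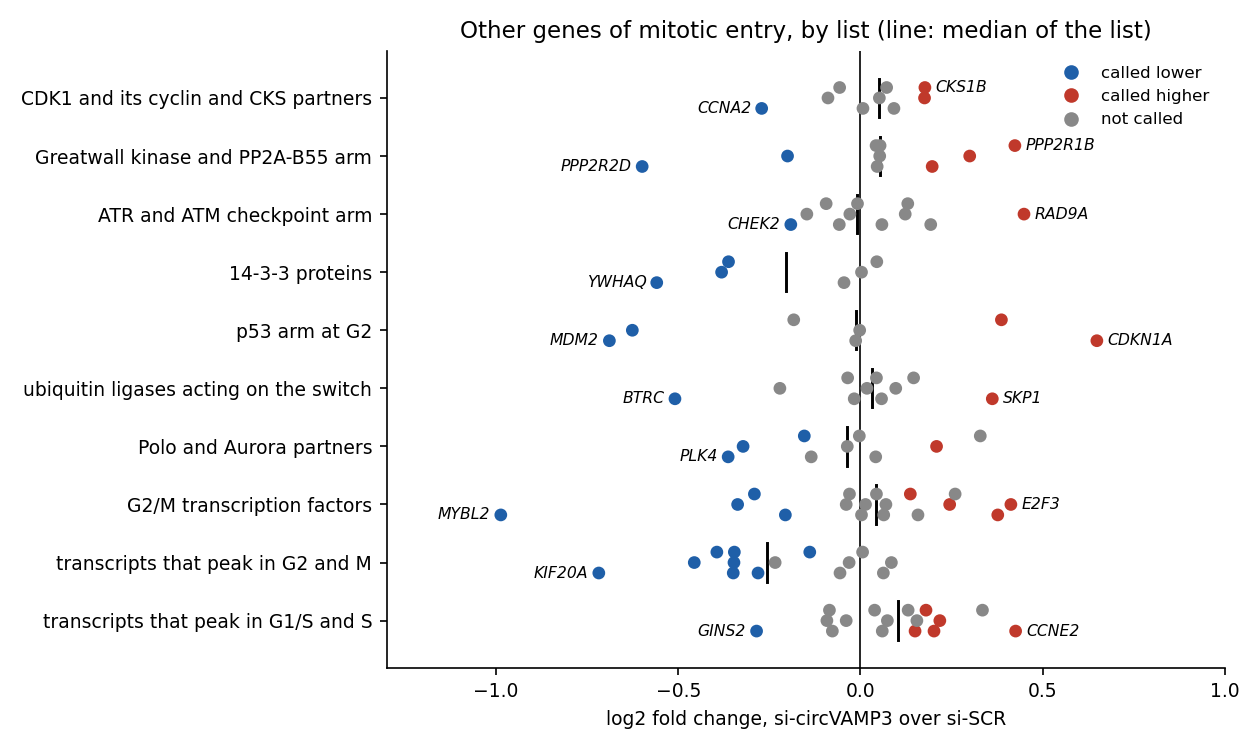
Log2 fold change of si-circVAMP3 over si-SCR (horizontal axis) for the tested genes of 10 lists around the switch, 1 point a gene, with the list median as a vertical line and the called genes at the ends named. Medians run from -0.26 for transcripts that peak in G2 and M to 0.10 for those that peak in G1/S and S.

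Of the 45 called genes in these lists, the seed word found in CDC25B and PLK1 was present in 10 of the 26 lower (38.5%) and 4 of the 19 higher (21.1%), and in 23.4% of those not called. Over all tested genes the shares were 52.2% of the lower, 17.2% of the higher and 28.4% of those not called. The 10 lower were MYBL2, FOXM1, KIF20A, KIF23, MKI67, MDM2, YWHAQ, YWHAZ, YWHAB and PPP2R2D. The 4 higher were CDKN1A, SKP1, CDK7 and RBBP4. CCNA2, AURKB, PLK4 and BTRC were among the lower genes that did not hold the word.

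The cell identity behind these levels was read from markers. All 8 markers of alveolar rhabdomyosarcoma and muscle were expressed, with DES the most abundant, and their FPKM summed to 1101, 1086 and 943.3 in the si-SCR libraries and 891.6 and 901.1 in the si-circVAMP3 libraries. MYOG, at 175.4, 178.6 and 149.0 FPKM in the si-SCR libraries and 100.7 and 96.6 in the si-circVAMP3 libraries, and CHRND were the 2 called, both lower, against 15.8% of all genes lower and 14.6% higher. Both held the seed word, MYOG in the coding sequence and CHRND in the 3′ UTR. Of the markers not called, only CHRNA1 held it. Whether the word had a part in the change of MYOG or CHRND was not tested. The call of CHRND was lost without si-circVAMP3 replicate 2 (limma, adjusted p = 0.0765). MYOD1 was not called, and its groups overlapped (log2 fold change 0.20, limma, adjusted p = 0.315), with 0.067 to 0.328 when a library was left out. These genes are named here after their values were seen. Of blood markers 0 of 5 were in the table, of epithelial markers 1 of 5 (KRT8, at 0.316, 0.215 and 0.256 FPKM in the si-SCR libraries and 0.651 and 0.58 in the si-circVAMP3 libraries, below the filter and not tested) and of endothelial markers 1 of 4 (PECAM1, at most 0.153 FPKM). Of fibroblast markers, 4 of 6 were in the table, with COL3A1 the most abundant at 27.1 to 33.6 FPKM, and their sum, nearly all COL3A1, was 34.9, 32.2 and 32.7 FPKM in the si-SCR libraries and 30.7 and 28.2 FPKM in the si-circVAMP3 libraries. PDGFRB, below the filter, ran the other way, at 0.226, 0.258 and 0.225 FPKM in the si-SCR libraries and 0.355 and 0.370 in the si-circVAMP3 libraries. Mitochondrial transcripts took 20.9%, 21.7% and 20.9% of the FPKM in the si-SCR libraries and 19.6% and 18.6% in the si-circVAMP3 libraries. The part of these shifts in the values of CDC25B, PLK1 and WEE1 was not tested.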

How the data were processed

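The authors' processing notes and methods name bcl2fastq 2.20.0.422, Trimmomatic, STAR 2.5.2b on GRCh38, strand-specific counting with HTSeq and edgeR. The deposited values were FPKM per gene made by the authors from those counts after removal of genes with few reads, and whether library sizes were TMM-adjusted was not given in the sources used here. The 10 members and the lists were chosen with earlier results of these data known. Symbols were matched for 13783 of 13822 genes. Genes with a mean FPKM of at least 0.5 were tested with limma 3.58.1 in R 4.3.3 on log2(FPKM + 0.5), with group as the only term, a variance trend and Benjamini-Hochberg adjustment over all 12245. The fit was tested on simulated data. Log2 fold changes on this scale understate the change of low genes. Genes followed through the alternatives were the members, VAMP3 and, in each list around the switch, up to 4 called genes of largest fold change, or the most abundant where none was called (ISG15). CDK1, MASTL, MYOG, CHRND, MYOD1, DES, COL3A1, GLRX5 and AQP1 were added after their values were seen. Library sizes were recovered with GENCODE 44 gene lengths, with which 71.9% of 8304 genes under 1000 fragments were whole (within 0.05) in all 5 libraries. The lengths of CDC25B, CDC25C and CHEK1 were solved from the values. The siRNA was read from the study's list of oligonucleotides, and words were searched in GENCODE 44 canonical transcripts (GRCh38).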

Additional observations from a re-analysis of the deposited data

How the results depend on the processing

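Over 14 alternatives (pseudocounts of 0.1 and 1, no filter, a mean FPKM of at least 5, median centring, quantile normalization, other variance priors, a replicate block and leaving out each library), CDC25B, PLK1 and WEE1 were called in all 14 with the fold of 0.58, and the other 7 members in none. Log2 fold changes ran from -1.31 to -1.22 for CDC25B, -0.70 to -0.63 for PLK1 and 0.595 to 0.648 for WEE1. Uncalled values near 0 changed sign: CCNB2 was 0.019 with median centring and 0.038 with the replicate block, and with a library left out CCNB2 ran from -0.036 to 0.038, PKMYT1 from -0.216 to 0.107 and CHEK1 from -0.008 to 0.065. Without a change of sign, BORA ran from 0.001 to 0.119, CDC25A from -0.08 to -0.013 and CDC25C from -0.15 to -0.085. With a library left out, 1263 to 3994 genes were called (3723 with all), and 23 to 47 list genes (45 with all). The table gave 2189 without si-SCR replicate 2, 1307 without si-circVAMP3 replicate 1 and 1263 without si-circVAMP3 replicate 2, and the lists 23 and 25 without the last 2. A lone si-circVAMP3 library was then assumed to vary like the si-SCR libraries. With a mean FPKM of at least 5, which tests fewer genes, 243 genes passed the fold rule (466 with a mean of at least 0.5) and 4373 did not overlap (7159 with a mean of at least 0.5). The pseudocounts of 0.1 and 1 gave 683 and 334 genes by the fold rule. Only the number was shared between same-numbered libraries (correlation over genes of the replicate 1 minus 2 differences -0.133), and with the replicate block 3122 genes were called. Over the other 45 genes followed the call was lost in 53 combinations of gene and alternative and gained in 3 (COL3A1 with a mean FPKM of at least 5 and with the replicate block, DES without si-SCR replicate 3), and no sign changed. The share with the seed word among genes lower with the fold (alternatives chosen after seeing the data) was 68.3% to 78.4%.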

Other observations

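CDC25B lay among the 20 called genes with the lowest fold changes, of which those named here were chosen after their values were seen. The lowest was GLRX5, a mitochondrial iron-sulfur protein, with FPKM values of 39.0, 36.9 and 36.7 in the si-SCR libraries and 8.11 and 8.78 in the si-circVAMP3 libraries (log2 fold change -2.09, limma, adjusted p = 4.39e-05). GLRX5 and AQP1 were the 2 of the 20 whose canonical mRNA held the seed word in neither the coding sequence nor the 3′ UTR. Genes with the word in both the 3′ UTR and the coding sequence, as in CDC25B, numbered 296, with a median log2 fold change of -0.20 and 45.6% called lower.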
